A study of Homo sapiens with 2 samples.

Results

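Processed pseudogenes are copies of messenger RNAs that were reverse transcribed and inserted elsewhere in the genome, usually without introns. The members described here are the processed pseudogenes of GENCODE 29, off chromosome Y, whose whole span lies inside the span of a protein-coding gene, called the host. They numbered 3277 of the 58347 genes in the table, with AKAP8P1 left out. In 2084 of them the host lay on the opposite strand, in 48 hosts lay on both strands and in 1145 the host lay on the same strand. Counts came from enhanced crosslinking immunoprecipitation (eCLIP) of the splicing factor U2AF2 in HEL, a human erythroleukemia cell line. RNA fixed to the protein by ultraviolet light was recovered with an anti-U2AF2 antibody and sequenced. The cells were untreated, and the samples formed 1 group of 2 biological replicates. The cell line field of the labels reads U2AF2, while the source and description fields name HEL. Input libraries were not analysed here, so no value is an enrichment over input.

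U2AF2 recognises the pyrimidine-rich tract that precedes the AG dinucleotide of a 3' splice site, and with its partner U2AF1 it helps place U2 snRNP on an intron. Introns also hold pyrimidine-rich stretches that are not splice sites, and U2AF2 crosslinks to many of these. A processed pseudogene inserted against the direction of its host is transcribed, within the host pre-mRNA, as the reverse complement of the parent messenger RNA. One inserted along the host direction is transcribed as the parent sequence itself.

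The genes had 995428 counts in replicate 1 and 1350116 in replicate 2. No source states whether counting used the strand, or which one, so reads of a host transcript and reads of a member's own transcript cannot be told apart. This bears on every value given here by host strand and on the counts given for the hosts themselves. If the strand opposite to the transcript was counted, members with an opposite-strand host carry the host's reads and the hosts' own counts are not theirs. Reads that map to several places are outside the counts, and processed pseudogenes share sequence with their parents, so a member's level is one of uniquely placed reads and is uncertain where the copy is near identical. Of the marker genes for the cell line, 7 erythroid genes summed to 55 and 100 counts, 5 megakaryocytic genes to 316 and 422, of which GP1BA held 312 and 413 and PF4 held 0, and 3 genes of other blood cells to 7 and 15. With the strand uncertain, these counts do not check the identity of the cells.

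The sequences of 6 members in host introns are shown first, because they display both insertion directions as the host RNA would read them. They were chosen by counts per kb among the named members with 1 exon and at most 600 bases that lie outside host exons, 4 with an opposite-strand and 2 with a same-strand host. The same-strand-host member AC100854.1 ranked above both same-strand-host members shown by that measure, with 205 counts per kb, and its sequence is not shown. Each is written 5' to 3' on the host strand, in GRCh38 and from the GENCODE 29 transcript sequences, as the whole member or as 300 bases around its longest run of pyrimidines. Capitals mark that longest unbroken run of C and T. The first 4 are reverse complements of the annotated pseudogenes, at chr5:109840376-109840675 (plus strand, in MAN2A1), chr5:141588935-141589142 (minus strand, in DIAPH1), chr12:68642565-68642864 (plus strand, in RAP1B) and chr16:81476220-81476519 (plus strand, in CMIP). The last 2 lie on the pseudogene's own strand, at chr3:10000647-10000940 (minus strand, in EMC3) and chr12:31715482-31715781 (minus strand, in AMN1).
AC008417.1: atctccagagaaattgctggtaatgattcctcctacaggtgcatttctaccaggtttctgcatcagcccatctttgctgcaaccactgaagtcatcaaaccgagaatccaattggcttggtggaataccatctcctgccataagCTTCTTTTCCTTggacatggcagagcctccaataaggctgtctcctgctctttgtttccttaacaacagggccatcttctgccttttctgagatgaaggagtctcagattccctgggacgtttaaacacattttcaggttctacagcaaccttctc
RPS27AP10: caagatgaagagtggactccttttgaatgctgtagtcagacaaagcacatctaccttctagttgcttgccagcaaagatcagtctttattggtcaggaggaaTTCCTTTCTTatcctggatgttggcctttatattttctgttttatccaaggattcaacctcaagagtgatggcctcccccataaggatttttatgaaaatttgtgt
ATP5PDP4: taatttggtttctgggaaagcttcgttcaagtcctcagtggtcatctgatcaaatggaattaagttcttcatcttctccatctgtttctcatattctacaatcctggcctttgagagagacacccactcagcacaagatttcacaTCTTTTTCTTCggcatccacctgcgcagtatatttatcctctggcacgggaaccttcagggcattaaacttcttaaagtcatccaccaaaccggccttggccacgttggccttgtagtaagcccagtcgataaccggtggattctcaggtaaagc
PPIAP51: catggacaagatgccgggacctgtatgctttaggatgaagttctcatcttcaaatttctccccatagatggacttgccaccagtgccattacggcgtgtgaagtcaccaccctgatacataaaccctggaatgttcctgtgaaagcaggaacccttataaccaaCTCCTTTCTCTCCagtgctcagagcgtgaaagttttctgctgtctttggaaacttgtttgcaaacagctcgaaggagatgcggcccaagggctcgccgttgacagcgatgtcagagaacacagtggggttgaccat
CYCSP10: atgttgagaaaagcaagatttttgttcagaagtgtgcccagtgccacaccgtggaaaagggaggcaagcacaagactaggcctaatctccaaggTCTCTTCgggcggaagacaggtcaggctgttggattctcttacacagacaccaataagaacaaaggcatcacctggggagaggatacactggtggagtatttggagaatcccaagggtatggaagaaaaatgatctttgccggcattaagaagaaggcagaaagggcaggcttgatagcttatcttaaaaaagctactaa
STMN1P1: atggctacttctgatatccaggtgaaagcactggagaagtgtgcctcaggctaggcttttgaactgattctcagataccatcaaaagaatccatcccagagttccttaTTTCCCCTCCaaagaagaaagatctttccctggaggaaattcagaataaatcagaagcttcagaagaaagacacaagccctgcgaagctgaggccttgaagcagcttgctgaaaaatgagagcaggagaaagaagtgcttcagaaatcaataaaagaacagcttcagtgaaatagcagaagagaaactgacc
The longest pyrimidine runs of the 4 opposite-strand members measured 12, 10, 11 and 13 bases, against 7 and 10 bases for CYCSP10 and STMN1P1. In AC100854.1 the longest run on the host strand was 17 bases, longer than in any of the 6 shown, so the sequences shown do not separate the classes by run length. Pyrimidines made up 58.0%, 54.3%, 57.0% and 50.7% of the 4 opposite-strand stretches and 39.1% and 41.3% of the 2 same-strand stretches. Over its whole length AC100854.1 held between 50% and 55% on the host strand. The gap in content among the 6 therefore depends on which members are shown. None of these 6 members held the motif TTTTTTTTT or TTTTTTTCC on the host strand.

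The first comparison set members with an opposite-strand host against those with a same-strand host. Opposite-strand-host members held 30200 counts in replicate 1 and 40736 in replicate 2, while same-strand-host members held 583 and 813. They made up 63.6% of the members and held 97.0% ± 0.0333 (SD, n = 2) of the members' counts, whereas same-strand-host members made up 34.9% and held 1.90% ± 0.0442. The exact 95% binomial interval of the opposite-strand share was 96.9% to 97.2% for replicate 1 and 96.8% to 97.2% for replicate 2. Such intervals, and the limits given for counts of 0, reflect counting error alone. The mean level was 25.2 counts per kb of exon in replicate 1 and 34.3 in replicate 2 for opposite-strand-host members, against 0.878 and 1.25 for same-strand-host members. The ratio of these means was 28.7 in replicate 1 and 27.5 in replicate 2, and 28.0 over both libraries. These levels are raw counts per kb and follow library depth, so replicates are compared through the ratio. Members are not replicates of a condition and many share a host or a parent, so no test was run over them.

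A median opposite-strand-host member held 7 counts over both libraries, with quartiles of 0 and 31, while the median and the upper quartile of same-strand-host members were both 0. A minimum of 10 counts per library was reached by 602 of 2084 opposite-strand-host members (28.9%), 9 of 48 members with hosts on both strands (18.8%) and 13 of 1145 same-strand-host members (1.14%). The share was 15.4% among all genes in the table. Both libraries were at 0 for 572 opposite-strand-host members (27.4%) and 900 same-strand-host members (78.6%). In CPM, which are counts per 1000000 scaled gene counts, a count of 0 allows a level of up to 2.98 for replicate 1 and 2.25 for replicate 2, the worth of 3 counts. The curves of members by count show the gap at every count from 1 upward. Among members that reached the minimum the ratio of means was 1.80, a value that follows in part from selecting on the counts compared.

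**Figure D1:**
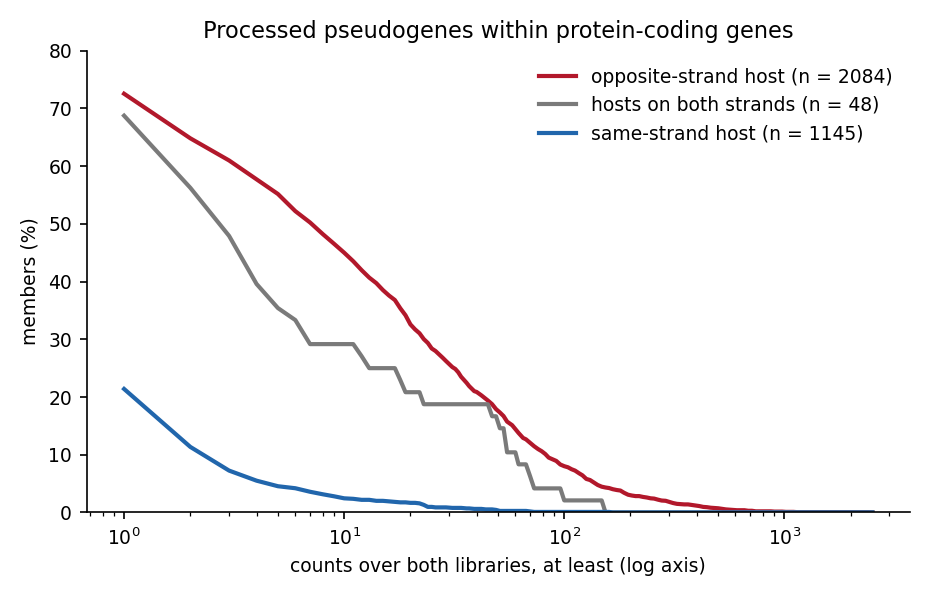
Percent of members (vertical axis) with at least the number of counts over both libraries given on the horizontal log axis, for opposite-strand hosts (red), hosts on both strands (grey) and same-strand hosts (blue). Of the opposite-strand-host members 27.4% had no count and 28.9% reached 10 in each library, against 78.6% and 1.14% of the same-strand-host members.

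In single hosts the comparison was repeated. There were 307 hosts with at least 1 member on each strand, holding 433 opposite-strand and 384 same-strand placements, where a member inside several overlapping hosts is placed once in each. Opposite-strand members had the higher mean counts per kb in 211 of these hosts and same-strand members in 33, and both were at 0 in the other 63. Summed over these placements, which repeat a member for each of its hosts, the opposite-strand side held 10831 counts and the same-strand side 473. In JAK2, the gene of a cytokine receptor kinase, 1 opposite-strand member held 1003 counts over both libraries and 2 same-strand members held 2. In UBE3C, a ubiquitin ligase gene, 2 opposite-strand members held 774 counts and 1 same-strand member held 0. In VPS13B, a gene of a lipid transfer protein, 4 opposite-strand members held 589 and 1 same-strand member held 6. In RDX, the radixin gene, 2 members on each side held 386 and 9 counts. Restricting the strand comparison to hosts with members on both strands gave a ratio of means of 21.1.

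**Figure D2:**
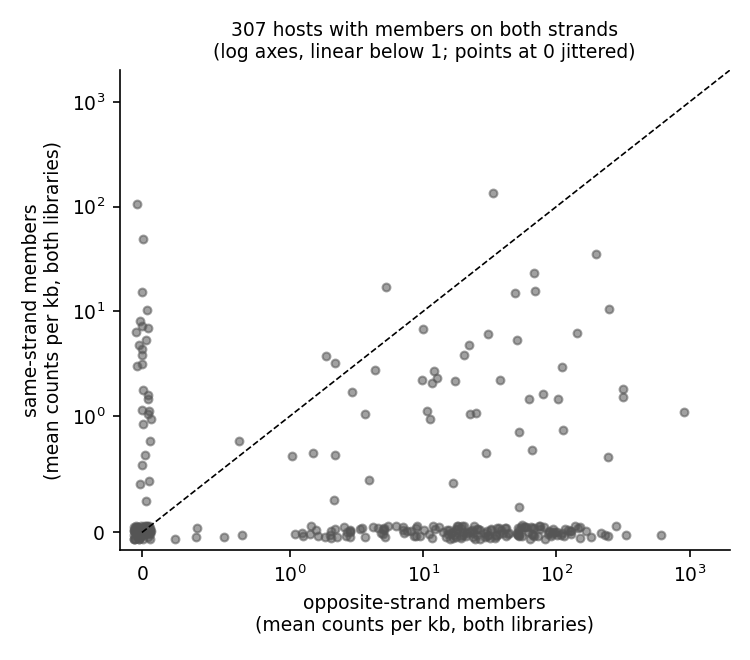
Each point is 1 of the 307 hosts with members on both strands, placed by the mean counts per kb over both libraries of its opposite-strand members (horizontal) and its same-strand members (vertical), on log axes that are linear below 1. Points below the dashed line of equality are the 211 hosts whose opposite-strand members held more, and 33 lie above it.

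Opposite-strand members were spread over 1752 hosts, of which 1435 held 1, 254 held 2 and 63 held 3 or more. Members of the same host lie within the same gene span, and their levels varied widely in some hosts and little in others. In VPS13B the 4 opposite-strand members held between 12 and 314 counts over both libraries, and in ABL2, a tyrosine kinase gene, the 4 held between 4 and 143. In PIK3CB, a phosphoinositide 3-kinase gene, the 3 opposite-strand members EEF1A1P25, GAPDHP39 and RPL23AP40 held between 84 and 521 counts over both libraries. In RAB7A, a gene of a late endosome GTPase, RPS15AP16, MARK2P8 and FTH1P4 held between 181 and 275. By contrast the 4 opposite-strand members of RBFOX1, a splicing regulator gene, held 0 counts while RBFOX1 itself held 98 and 112. The 4 of NEBL, the nebulette gene, held 1. The 3 of STAG2 held 1 and 0 counts in the 2 libraries, and the 4 of PLEKHB2 held 1 and 2. Whether expression of the host bears on these counts was not tested. All the opposite-strand members of 448 hosts were at 0 in both libraries.

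The member with the most counts was AC008417.1 (ENSG00000249068, chromosome 5, 109840128 to 109840692, minus strand), in an intron of MAN2A1, a Golgi mannosidase gene. It held 981 and 1486 counts, or 1044 ± 100 CPM (SD, n = 2), and 4366 counts per kb over both libraries. MAN2A1 itself held 2 and 4 counts. The pseudogene has no parent in its symbol, and it aligned best to CT45A10, a cancer-testis antigen gene, at 88.1% identity. It took 3.48% of all counts of opposite-strand-host members, and the 10 leading members took 13.3% and the 100 leading members 47.0%.

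Of the other leading members, several are copies of metabolic or mitochondrial genes, a grouping made after their values were seen. PDSS1P1, a copy of a gene of coenzyme Q synthesis, lies in an intron of JAK2 (chromosome 9, 5084999 to 5086112, minus strand) and held 433 and 570 counts, or 429 ± 1.36 CPM (SD, n = 2). JAK2 itself held 61 and 88 counts. ATP5PDP4, a copy of an ATP synthase subunit gene, lies in an intron of RAP1B, a small GTPase gene, and held 412 and 475 counts. RAP1B itself held 4 and 11. DLSTP1, from an enzyme gene of the citric acid cycle, held 290 and 384 counts in an intron of ACADM, a gene of fatty acid oxidation. MRPS18AP1, from a mitochondrial ribosomal protein gene, held 251 and 423 counts and touches an exon of ZNF589. IMPDH1P10, from a gene of guanine nucleotide synthesis, held 239 and 269 and touches an exon of CFLAR, an apoptosis regulator gene.

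Copies of cyclophilin, ribosomal protein and translation factor genes were also among the 15 leading members. PPIAP53, a copy of the cyclophilin A gene PPIA, ranked next after AC008417.1 and held 454 and 687 counts against the strand of TVP23C, whose exon it touches. PPIAP51, a second PPIA copy, held 235 and 357 in an intron of CMIP. RPS27AP10, from a gene of a ubiquitin and ribosomal protein fusion, held 241 and 310 counts in an intron of DIAPH1, a formin gene, and with 208 bases it reached 2649 counts per kb. EEF1A1P25, from the elongation factor gene EEF1A1, held 221 and 300 counts in an intron of PIK3CB. KLF4P1, from a transcription factor gene, held 248 and 281 in an intron of RCL1, at 69.8% identity to KLF4.

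The 4 remaining leading members carry clone names. AC004898.1 held 295 and 426 counts in an intron of UBE3C and aligned best to UBXN2B. AL050341.1 held 286 and 433 and touches an exon of ZMPSTE24, the protease gene of lamin A maturation, and aligned best to RIOK2, a kinase gene of ribosome maturation. AC124068.1 held 258 and 323 in ABHD2 and aligned best to VAPA, and AC007899.1 held 208 and 298 in EIF2AK2, the double-stranded RNA kinase gene, and aligned best to ARL14EP. Across the 15 leading members the lowest level in either library was 202 CPM, that of IMPDH1P10 in replicate 2. Of the 15, 6 touch a host exon, against 133 of all 2084 opposite-strand-host members. None of the hosts of the 15 held more than 61 and 88 counts of its own, and these counts were not compared with those of all hosts.

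**Figure D3:**
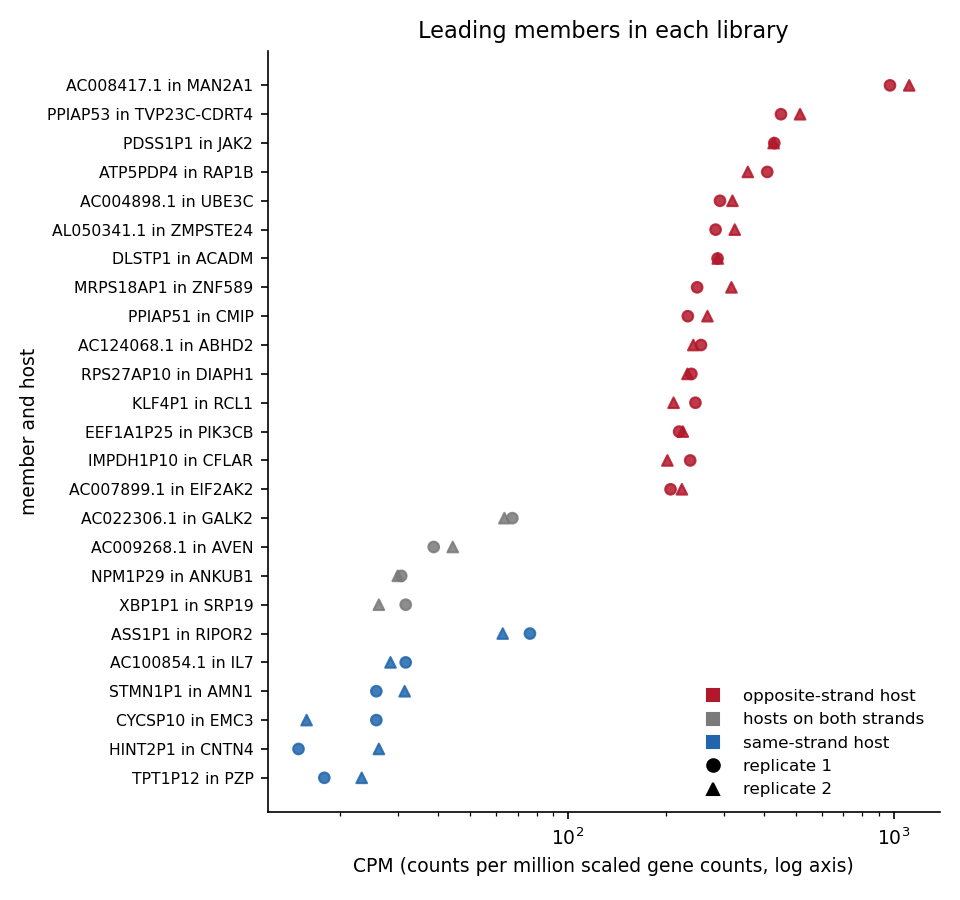
CPM on a log axis in replicate 1 (circles) and replicate 2 (triangles) for the leading members with an opposite-strand host (red), with hosts on both strands (grey) and with a same-strand host (blue), each named with its first host. AC008417.1 stands highest at 1044 ± 100 CPM, and ASS1P1 leads the same-strand-host members at 69.7 ± 9.45 CPM.

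Where hosts lay on both strands, AC022306.1 led with 68 and 85 counts within both GALK2 and FAM227B, at 94.9% identity to the protease gene SPPL2A. AC009268.1, aligned best to SSB, the gene of the RNA-binding La protein, held 39 and 59. NPM1P29, from the nucleophosmin gene, held 31 and 40, and XBP1P1, from a transcription factor gene of the unfolded protein response, held 32 and 35. All 48 members of this class together held 336 and 447 counts.

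Of the same-strand-host members, ASS1P1 held the most, with 77 and 84 counts, or 69.7 ± 9.45 CPM (SD, n = 2). It is a copy of the argininosuccinate synthase gene in an intron of RIPOR2 (chromosome 6, 25023247 to 25024483, minus strand). AC100854.1 held 32 and 38 counts in IL7, the interleukin gene, and STMN1P1, from the stathmin gene, held 26 and 42 in AMN1. CYCSP10, from the cytochrome c gene, held 26 and 21 in EMC3 and lies within the span of EMC3-AS1 on the other strand. HINT2P1 held 15 and 35 in CNTN4, and TPT1P12 held 18 and 31 in PZP. All 6 lay in host introns, and the leading one held 11.5% of the counts of its class.

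Position within the host was compared next. Among opposite-strand-host members, the 133 that share a base with a host exon averaged 54.6 and 77.5 counts per kb in the 2 libraries, and the 1951 in host introns averaged 23.2 and 31.4. The ratio of the means was 2.35 in replicate 1 and 2.47 in replicate 2. The minimum of 10 counts per library was reached by 63 of the 133 (47.4%) and 539 of the 1951 (27.6%). Among same-strand-host members the order was the other way, with 0.353 and 0.386 counts per kb for the 92 that touch a host exon and 0.924 and 1.32 for the 1053 in introns. That order rests on few counts. The 92 held 16 and 24 counts in all, 81 of them were at 0, and 0 reached the minimum. In introns ASS1P1 alone held 161 of 1356 counts over both libraries. Reads tallied as ambiguous, 17816 and 23938 in the 2 libraries, are in no gene's counts. Their part in the order by position was not tested. Exons of any annotated transcript of the host were included.

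Within introns the distance to the next host exon in the direction of transcription was measured for opposite-strand-host members. The near edge of that exon is a 3' splice site or the start of another transcript of the host. The 72 members within 500 bases averaged 33.6 and 45.3 counts per kb, and the 570 members more than 20000 bases away averaged 16.2 and 21.9. Distance to the upstream exon gave 42.2 and 55.9 counts per kb for the 49 members within 500 bases and 17.5 and 24.1 for the 602 beyond 20000 bases. Mean counts were thus higher nearer to an exon on either side. Merged exons of all transcripts were used, so some of these exons are rarely spliced in.

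Parents were compared to see which gene families the counted members came from. A parent was read from the symbol for 1611 members and from the best alignment to a protein-coding transcript for 3061 (93.4%). Where the symbol named one, the alignment gave the same parent in 95.1%. The opposite-strand-host members came from 948 aligned parents, of which 28 had 10 or more copies there. The lists of families were chosen with earlier results of these data known.

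By symbol, opposite-strand-host members from chaperone and cyclophilin genes averaged 52.4 and 76.4 counts per kb (46 members), and those from HMG chromatin protein genes 48.6 and 62.8 (35 members). Respiratory chain parents gave 41.8 and 53.1 (46 members), cytosolic ribosomal protein parents 28.7 and 38.8 (244 members), and translation factor parents 26.6 and 36.7 (26 members). Ubiquitin and proteasome parents gave 23.8 and 32.0 (24 members), glycolytic parents 14.8 and 19.6 (21 members), splicing protein parents 13.4 and 18.7 (52 members), and cytoskeleton and keratin parents 9.12 and 13.0 (37 members). Other named parents gave 23.6 and 31.7 (455 members), and members with no parent in the symbol 23.9 and 32.7 (1098 members). PPIAP53 alone held 1141 of the 2788 counts of the chaperones and cyclophilins, and ATP5PDP4 held 887 of the 1617 of the respiratory chain. The HMG counts depended less on their leading member. Of the 35 HMG members 15 (42.9%) held 10 counts per library or more, against 28.9% of all opposite-strand-host members. However, 13 (37.1%) had no count in either library, against 27.4% of that whole class. For translation factor parents these shares were 42.3% and 15.4%. Median counts per kb over both libraries were 38.4 for respiratory chain parents, 24.6 for HMG and 19.5 for chaperones and cyclophilins. HMGN1P2, in SCAF4, led the HMG members with 149 and 184 counts and held 333 of their 1514.

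Ribosomal protein parents, the largest family, stood near the rest. Their mean over that of all members with any other parent in the symbol, the families above pooled, was 1.10 in each library, 0.974 without the member with the most counts on each side, and 0.841 with parents taken from the alignment, where 550 members came from ribosomal protein genes. Of the 244 members by symbol 68 (27.9%) held at least 10 counts in each library, close to the 28.9% of all opposite-strand-host members. Among the cytoskeleton and keratin parents the leading member was KRT18P57, from a keratin gene, with 102 and 136 counts in RAP1A. GAPDHP39, from the glycolytic gene GAPDH, led its family with 80 and 102 in PIK3CB.

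Single parents with many copies showed how uneven the copies were. The 11 opposite-strand copies of HMGN1, the gene of a nucleosome-binding protein, averaged 228 counts per kb over both libraries with a median of 153, and 7 of them held at least 10 counts in each library. HMGN1P2 took 46.6% of the counts of these 11. The 12 same-strand copies of HMGN1 held 2 counts in all. The 20 opposite-strand copies of PPIA averaged 225 counts per kb with a median of 41.7, and PPIAP53 took 52.0% of their counts, while the 7 same-strand copies held 3 counts. The 41 opposite-strand copies of RPL21 averaged 30.1, and the 16 same-strand copies held 0 and 6 counts in all. The 25 opposite-strand copies of HNRNPA1 averaged 32.4 and the 8 same-strand copies 0.261. At the low end stood RPL5, with 7.28 counts per kb over 10 opposite-strand copies, and BNIP3, a mitophagy receptor gene, with 17.1 over 21 copies, 11 of them at 0.

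Across all aligned parents with copies on both sides, 274 in number, opposite-strand copies had the higher mean in 222 and same-strand copies in 19, and both were at 0 in the other 33. These copies came to 1092 with an opposite-strand host and 660 with a same-strand host, and they held 30445 and 654 counts over both libraries.

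**Figure D4:**
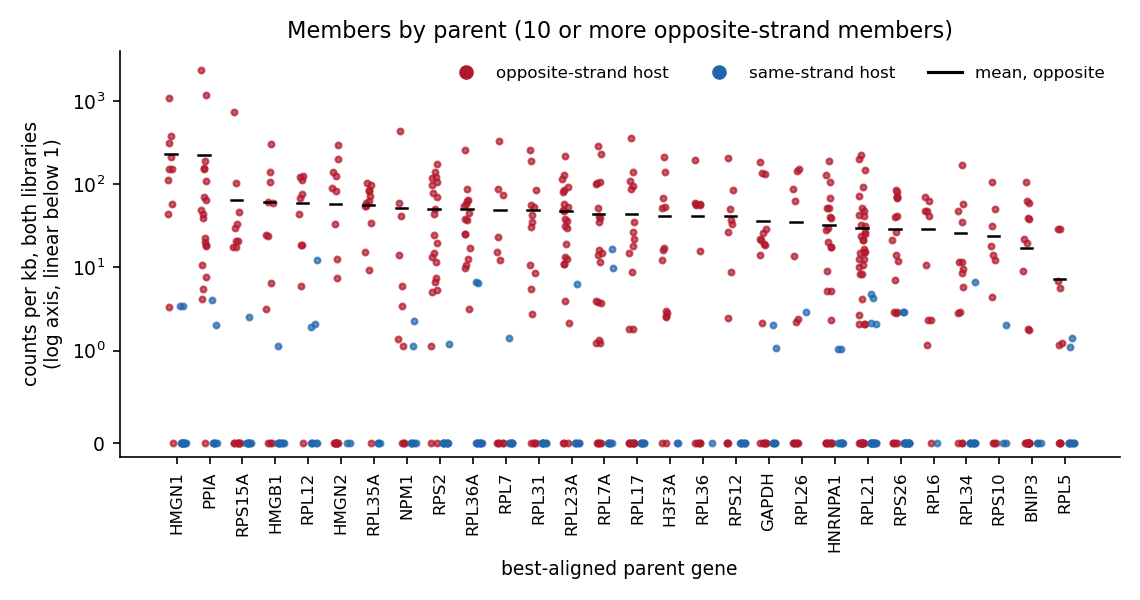
Counts per kb over both libraries (log axis, linear below 1) of each member, by parent, for the 28 parents with 10 or more opposite-strand copies, with opposite-strand hosts in red and same-strand hosts in blue. Black bars are the means of the opposite-strand copies, between 228 for HMGN1 and 7.28 for RPL5, and most same-strand copies sit at 0.

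Some members annotated as processed pseudogenes are nuclear copies of mitochondrial genes rather than of nuclear messenger RNAs. The 38 of these with an opposite-strand host held 55 and 56 counts, a mean of 2.60 and 2.34 counts per kb, and 22 were at 0. The 13 with a same-strand host held 1 and 2 counts. ARHGAP15 has 8 opposite-strand members, most of them such copies, which held 1 count in all, and DYNC2H1 has 7, again mostly such copies, which also held 1. The 5 copies in PCBD2 differed, with 35 and 30 counts in all.

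Base composition was measured on the host strand, where an opposite-strand-host member reads as the reverse complement of its parent and a same-strand-host member as the parent itself. The split by host strand therefore sets much of the difference. On that strand the median pyrimidine content was 54.7% in opposite-strand-host members (quartiles 51.8 and 57.5) and 45.6% in same-strand-host members (42.9 and 48.4). The longest pyrimidine run on the host strand had a median of 11 bases in opposite-strand-host members and 8 in same-strand-host members. Levels were also taken within ranges of pyrimidine content. With 45% pyrimidine or less, 81 opposite-strand-host members averaged 11.9 and 14.8 counts per kb, against 1.13 and 1.49 for 502 same-strand-host members. Between 50% and 55%, 801 opposite-strand-host members averaged 26.7 and 36.1, against 1.15 and 1.90 for 122 same-strand-host members. Above 55%, 971 opposite-strand-host members averaged 26.8 and 37.2, against 0.377 and 0.322 for 43 same-strand-host members. The same-strand levels rest on few counts. Those 43 members held 5 and 9 counts in all, 39 of them were at 0, and 0 reached 10 counts per library. Between 50% and 55%, AC100854.1 alone held 70 of the 149 same-strand counts over both libraries. Within the opposite-strand class the mean was thus lowest in the most purine-rich copies on the host strand.

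Long uridine tracts were rare in the members. On the host strand, 126 opposite-strand-host members (6.05%) held TTTTTTTTT, with a median of 12.4 counts per kb over both libraries against 15.2 in the others, and their mean of 53.0 was also the lower one. The motif TTTTTTTCC lay on the host strand of 54 (2.59%), with a median of 24.4 counts per kb against 14.7 and a mean of 57.4 against 59.6. On the other strand TTTTTTTTT lay in 39 (1.87%), with a median of 1.77 counts per kb against 15.4, and TTTTTTTCC in 7 (0.336%), with 3.39 against 15.2. Among same-strand-host members the host strand held TTTTTTTTT in 14 (1.22%) and TTTTTTTCC in 4 (0.349%), with a median of 0 counts in both. For all processed pseudogenes outside protein-coding genes, TTTTTTTTT lay in 4.63% on the strand opposite to the pseudogene and in 1.58% on its own strand, and TTTTTTTCC in 2.32% and 0.563%. The 2 motifs can share bases, and members that hold one are longer, with a median of 854.5 bases against 479 for TTTTTTTTT on the host strand. Sequence beyond the annotated ends, where the poly(A) tract of a retrocopy lies, was not used here.

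Identity to the parent bears on how many reads can be placed uniquely. The median identity was 87.8% in opposite-strand-host members and 88.7% in same-strand-host members. Opposite-strand-host members above 98% identity averaged 9.38 and 13.3 counts per kb (80 members), against 30.9 and 39.7 between 95% and 98% (170 members) and 32.6 and 45.3 between 85% and 90% (471 members). At 80% or less they averaged 19.3 and 26.1 (361 members). Below 90% identity the ratio of opposite-strand-host to same-strand-host means was 24.4. The part of multimapping in the low level above 98% was not tested.

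**Figure D5:**
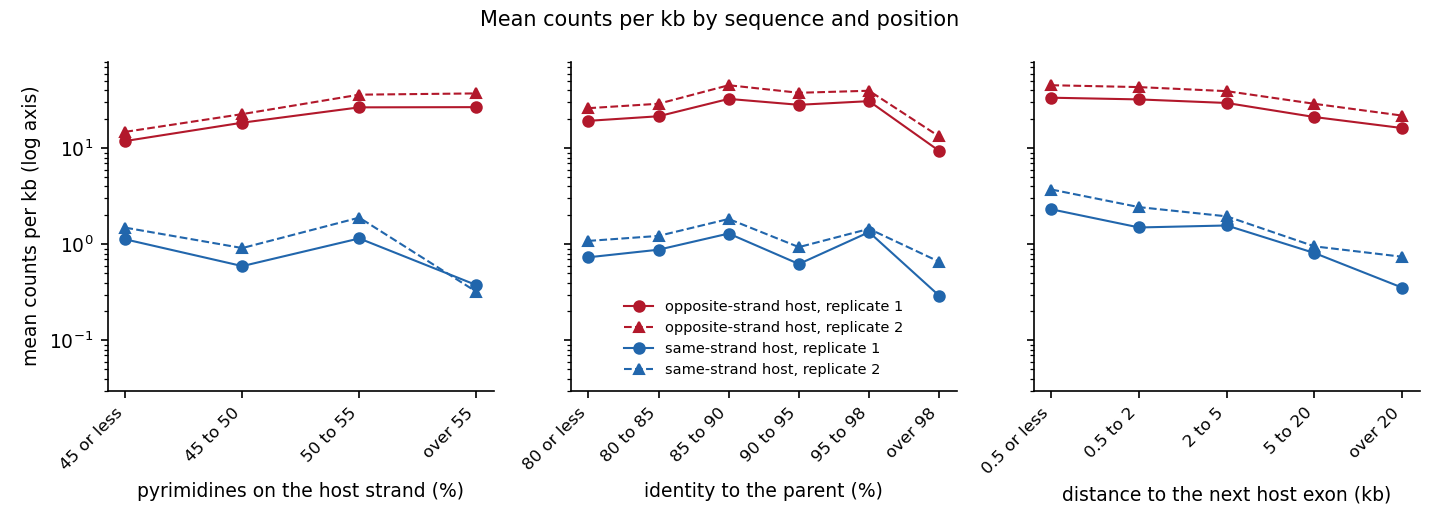
Mean counts per kb (log axis) in replicate 1 (circles, solid) and replicate 2 (triangles, dashed), by pyrimidine content of the member on the host strand, by identity to the best-aligned parent and by distance to the next host exon downstream, for opposite-strand hosts (red) and same-strand hosts (blue). The red lines lie above the blue ones in every bin and drop above 98% identity, to 9.38 and 13.3 counts per kb.

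Processed pseudogenes outside protein-coding genes gave a level for copies without a coding host. The 6753 of them averaged 2.87 and 3.85 counts per kb, and the opposite-strand-host members stood 8.81 times above them in replicate 1 and 8.90 times in replicate 2. In the outside group 200 genes (2.96%) reached 10 counts per library. It is not free of hosts, since 8 of its genes lie opposite FTX, a long non-coding RNA gene, and these held 1868 and 2476 counts, 13.5% of the group. RAB11FIP1P1 alone held 1373 and 1815. Unprocessed pseudogenes, which arise by gene duplication, showed the same order within coding hosts, with 17.7 and 24.0 counts per kb for 185 opposite-strand and 0.614 and 0.889 for 107 same-strand ones.

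The replicates were then compared for each gene with an exact two-sided binomial test at the scaled library sizes, adjusted over the 8983 genes that reached 10 counts per library. Of these genes 0.501% passed an adjusted p of 0.05. Of the 624 members tested 0 passed, and 44 (7.05%) had an unadjusted exact p below 0.05, against 8.56% of all genes tested. The log2 ratio of replicate 2 over replicate 1 had a median of -0.03 in the members and ran between -1.25 and 1.26. Across the 624 members log2 CPM of the 2 libraries had a Pearson r of 0.937 and a Spearman rho of 0.896, a description over members that share libraries and hosts. The test sets one library against the other, with counting error as its only error, and DESeq2 size factors also gave 0 calls in the members.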

How the data were processed

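Per the submitters' processing notes, reads were handled with cutadapt and STAR 2.7.0f on GRCh38.p10. The deposited table holds unnormalized whole-number counts for every gene in each library. The counting step with its strand setting, the annotation release and the treatment of PCR duplicates are not given in the sources used here. Counted reads may therefore include PCR copies of one molecule. Tallies of reads on no gene were left out of library sizes. Library sizes were scaled by TMM in edgeR 4.0.16 under R 4.3.3, with factors of 1.01 and 0.987, and the quasi-likelihood test was not used, since 1 group gives no contrast. DESeq2 1.42.0 size factors were an alternative.

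Gene models came from GENCODE 29 through the unversioned Ensembl identifier (58084 of 58347 had a model). Levels per kb use merged exons and raw counts over both libraries unless a library is named. Parents came from symbols and from blastn 2.17.0 against GENCODE 29 protein-coding transcripts, on the plus strand, with at least 50% of the pseudogene aligned and genes at its own locus left out. Motifs and runs were searched within annotated members on both strands. The exact binomial test was checked on simulated data. Other steps used Python 3.11.15, numpy 2.4.6, scipy 1.17.1, pandas 2.3.3 and matplotlib 3.10.9.

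The members, families and tests were chosen with earlier results of these data known. The named members were the 15, 6 and 4 with the highest mean CPM for opposite-strand hosts, same-strand hosts and hosts on both strands, the leading member of each family, the 5 with the most counts per kb and at least 50 counts in each library, and any called between replicates. Hosts and parents named beyond these, and the pyrimidine, identity and distance ranges, were chosen with their values already known. Leading members of some families are not reported here.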

Additional observations from a re-analysis of the deposited data

Results flagged for a closer look

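Reads on no gene were outside all comparisons. Replicate 1 held 36374618 and replicate 2 held 50621073 of them, 97.3% ± 0.0477 (SD, n = 2) of the uniquely mapped reads, so the members' counts describe a small part of each library.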

How the results depend on the processing

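No paired analysis was possible because the samples form 1 group. The ratio of opposite-strand-host over same-strand-host means (28.0) ran between 27.5 and 28.7 without 1 replicate, and was 24.3 in host introns, 16.1 for medians with 1 added, which only restates the opposite-strand median because the same-strand median is 0, and 1.80 among members with at least 10 counts in each library. Chosen after the data were seen, it was 24.4 below 90% identity, 21.1 for hosts with members on both strands and 27.8 with 1 member per host. The difference in percent of members with at least 10 counts (27.8 points) was 29.5 and 33.9 points without 1 replicate, 38.3 with a minimum of 5 counts and 17.6 with 20. The ratio of exon-touching over intronic members (2.42) was 1.62 with the count minimum and 2.20 without the leading member of each side. The ratio over processed pseudogenes outside protein-coding genes (8.86) was 1.04 with the count minimum, 8.13 in introns and 10.8 with no other gene over the exons. The ratio of ribosomal protein parents over all other named parents (1.10) was 1.28 with the count minimum, and it turned below 1 without the leading members (0.974) and with aligned parents (0.841), so it shows no direction. The minimum selects on the counts compared, and the cause of the other shifts was not tested. Of 40 alternatives 24 left a value within the spread between replicates or left a count unchanged, 14 moved it further and 2 turned its direction. The alternatives without 1 replicate use the same values that set this spread, so they are not independent checks. Calls between replicates stayed at 0 in the members under DESeq2 size factors, without TMM and with no count minimum. At this depth a member at 0 in both libraries cannot be told from a low one.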
